A study of Homo sapiens with 8 samples.

Results

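Aminoacyl-tRNA synthetases join each amino acid to its transfer RNA, and 37 genes for these enzymes were followed in A549, an established cell line from a human lung adenocarcinoma, with MGA overexpressed or with MYC knocked down. The 37 genes were taken by name from a fixed list out of 57820 gene rows. They comprised 20 genes for cytosolic enzymes, 16 genes for mitochondrial enzymes whose names end in 2, and TARSL2, whose name also ends in 2 but whose product is a second threonyl-tRNA synthetase of the cytosol, and which was kept apart. Poly(A)-selected RNA was sequenced in 4 groups of 2 libraries, A and B. A549 cells carried an MGA overexpression vector or an empty vector, and other A549 cells received siMYC, an siRNA against MYC, or siNC, a control siRNA. All groups share the line, and no genotype, time point or dose is stated in the sources used here. Nothing in the labels says that A and B were separate cultures, so each p-value reflects the variation from library to library alone, and that may be technical.

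The cytosol and the mitochondrion translate separate messenger RNAs, and mammals use mostly separate nuclear genes for the synthetases of each compartment. GARS and KARS are exceptions whose genes supply both. In the cytosol, 8 of the genes studied (DARS, EPRS, IARS, KARS, LARS, MARS, QARS and RARS) encode enzymes of the multi-tRNA synthetase complex, which is held together by the scaffold proteins AIMP1, AIMP2 and EEF1E1. Many cytosolic synthetase genes are known targets of ATF4, a transcription factor of the amino acid response, and MYC is known to act on many genes of protein synthesis. MGA pairs with MAX, the partner of MYC, and the pairs MYC-MAX and MGA-MAX recognise the same core sequence, the E-box CACGTG.

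The start-site windows of the synthetase genes show where the letters of the E-box and of the ATF4 element stand, and are given for the genes that hold a match. RefSeq (GRCh38.p14) gave windows of 250 bases before to 50 bases after the start site for 26 of the 37 genes, 12 cytosolic and 14 mitochondrial. CACGTG, which reads the same on both strands, was in 7.3% of all 35116 windows of the table. It was in 1 of the 12 cytosolic windows (IARS) and in 3 of the 14 mitochondrial windows (CARS2, EARS2 and MARS2). TGATGNAA, the core of the element bound by ATF4 with C/EBP partners, was searched on both strands and was in 3.6% of all windows. It was in 5 of the 12 cytosolic windows (AARS, CARS, IARS, NARS and TARS) and in 1 of the 14 mitochondrial windows (YARS2). The matches to the 2 motifs did not overlap. A match is only a match of letters, and the deposited values use hg19, so positions are those of the RefSeq table alone. The IARS window is shown whole because it held both motifs, with the matches in capitals, CACGTG at position -186 and the other match at position -13 from the start site.
IARS (chr9:92293648-92293947, minus strand): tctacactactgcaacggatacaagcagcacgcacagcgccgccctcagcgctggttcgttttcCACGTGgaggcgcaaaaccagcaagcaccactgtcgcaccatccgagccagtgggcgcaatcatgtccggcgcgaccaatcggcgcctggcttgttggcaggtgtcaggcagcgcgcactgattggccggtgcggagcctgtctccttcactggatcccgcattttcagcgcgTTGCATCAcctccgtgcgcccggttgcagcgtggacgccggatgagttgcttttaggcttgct
The other cytosolic matches to TGATGNAA are shown with their flanks and lay at position -187 in AARS, -2 in CARS, 15 in NARS and 3 in TARS.
AARS (chr16:70289656-70289723, minus strand): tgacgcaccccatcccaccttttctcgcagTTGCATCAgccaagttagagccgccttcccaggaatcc
CARS (chr11:3057388-3057455, minus strand): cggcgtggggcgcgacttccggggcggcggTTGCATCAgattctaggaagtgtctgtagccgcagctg
NARS (chr18:57621787-57621852, minus strand): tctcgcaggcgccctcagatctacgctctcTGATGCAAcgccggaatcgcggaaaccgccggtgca
TARS (chr5:33440937-33441004, plus strand): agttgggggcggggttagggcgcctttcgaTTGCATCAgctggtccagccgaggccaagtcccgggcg
The mitochondrial matches to CACGTG lay at position -3 in CARS2, -15 in EARS2 and -11 in MARS2, and the mitochondrial match to TGATGNAA lay at position -197 in YARS2.
CARS2 (chr13:110706483-110706548, minus strand): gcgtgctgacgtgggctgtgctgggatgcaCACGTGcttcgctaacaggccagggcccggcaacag
EARS2 (chr16:23557330-23557395, minus strand): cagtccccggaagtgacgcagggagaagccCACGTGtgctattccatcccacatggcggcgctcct
MARS2 (chr2:197705328-197705393, plus strand): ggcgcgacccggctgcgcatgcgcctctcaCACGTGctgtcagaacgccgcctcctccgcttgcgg
YARS2 (chr12:32756057-32756124, minus strand): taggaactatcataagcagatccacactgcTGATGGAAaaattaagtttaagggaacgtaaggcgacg

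The libraries were shallow. Total expected counts (RSEM's estimates of reads per gene) were 1176890 and 917548 in MGA libraries, 844477 and 820428 in empty vector libraries, 2129006 and 1598792 in siMYC libraries, and 1398805 and 1741730 in siNC libraries. The manipulated genes matched the labels. MGA (ENSG00000174197.12) stood at 102500 and 103700 normalised read counts relative to library size (CPM) in MGA libraries and at 121.6 and 81.5 CPM in empty vector libraries, and it took 9.54% and 9.68% of the counts of the MGA libraries. MYC (ENSG00000136997.10) stood at 48.3 and 41.1 CPM in siMYC libraries and at 219 and 183 CPM in siNC libraries. MYC was also higher in MGA libraries, at 296 and 347 CPM, than in empty vector libraries, at 234 and 241 CPM (log2 fold change 0.43, SE 0.12, edgeR adjusted p = 0.0247). The epithelial keratins KRT7, KRT8 and KRT18 stood between 993 and 3218 TPM (the deposited level per length) in all 8 libraries. KRT19 stood at 155 and 119 TPM in siMYC libraries and 58.5 and 47.4 TPM in siNC libraries, and at 9.18 and 13.6 TPM in MGA libraries and 10.3 and 16.1 TPM in empty vector libraries. KRT19 was called higher with siMYC (log2 fold change 1.23, adjusted p = 6.02e-07), and KRT7, KRT8 and KRT18 lower (-0.19, -0.22 and -0.36, adjusted p = 0.0366, 0.047 and 0.00178), and 0 of the 6 epithelial markers were called with MGA. CDH1 stood at 6.16 to 49.95 TPM over the 8 libraries. EPCAM was at 0 to 1.13 TPM in MGA and empty vector libraries. It stood at 6.67 and 11.6 TPM in siMYC libraries and at 14.85 and 14.32 TPM in siNC libraries. The alveolar markers SFTPA1, SFTPB, SFTPC and NKX2-1 were listed at 0 in all 8. Of 6 markers of other cells with values, PTPRC, CD3E, VWF and DCN were listed at 0 in all 8 libraries. PECAM1 was also chosen as such a marker and has no values here. COL1A1 stood at 84.9 and 87.2 TPM in siMYC libraries against 7.85 and 19.8 TPM in siNC libraries, and CD68 at 40.2 and 36.8 TPM against 18.3 and 16.4 TPM. CD68 stood at 131 and 149 TPM in MGA libraries and at 174 and 162 TPM in empty vector libraries, and COL1A1 at 23.6 and 7.76 TPM and at 6.17 and 15.2 TPM. The part of these markers in the results was not tested.

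Per length, the cytosolic genes were far more abundant than the mitochondrial ones in every library. The 20 cytosolic genes summed to 2734 and 2599 TPM in MGA libraries, 2357 and 2493 TPM in empty vector libraries, 1714 and 1547 TPM in siMYC libraries, and 2171 and 2102 TPM in siNC libraries. The 16 mitochondrial genes summed to 317 and 368 TPM in MGA libraries, 363 and 417 TPM in empty vector libraries, 400.4 and 399 TPM in siMYC libraries, and 503 and 417 TPM in siNC libraries. The ratio of the cytosolic to the mitochondrial sum was 8.63 and 7.07 in MGA libraries and 6.50 and 5.97 in empty vector libraries. It was 4.28 and 3.88 in siMYC libraries and 4.32 and 5.04 in siNC libraries. The ratio was thus higher in both MGA libraries than in both empty vector libraries, and lower in both siMYC libraries than in both siNC libraries, with no test, since 2 libraries a side allow no exact permutation p below 0.333. It was also higher in all 4 vector libraries than in all 4 siRNA libraries, where the kind of treatment and the experiment cannot be told apart.

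WARS, the tryptophanyl-tRNA synthetase, had the highest mean level of the 37 genes in 3 of the 4 groups. It stood at 420 ± 63.2 TPM with MGA and 369 ± 7.88 TPM with empty vector, and at 163 ± 7.83 TPM with siMYC and 147 ± 9.60 TPM with siNC (SD, n = 2 each). TARS, the threonyl-tRNA synthetase, came next with MGA and with empty vector, at 261 ± 5.30 and 207 ± 19.0 TPM. TARS was at 140 ± 13.9 TPM with siMYC, and with siNC it was the highest of all, at 217 ± 33.8 TPM. The next genes down with MGA were MARS at 245 ± 31.1 TPM, GARS at 193 ± 16.4 TPM and SARS at 185 ± 22.1 TPM, enzymes for methionine, glycine and serine. TARS and MARS overlapped there, as did GARS and SARS. In that order of means, the library values of 27 of 36 neighbouring pairs overlapped with MGA, 29 with empty vector, 30 with siMYC and 25 with siNC, so that most neighbours could not be ranked. The lowest cytosolic genes by mean were FARSB with MGA at 42.3 ± 3.79 TPM, VARS with empty vector at 59.8 ± 11.8 TPM, VARS with siMYC at 28.5 ± 5.88 TPM and CARS with siNC at 38.4 ± 2.36 TPM.

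IARS2, the mitochondrial isoleucyl-tRNA synthetase, was the only mitochondrial gene above the lowest cytosolic mean in every group. It stood at 63.6 ± 1.32 TPM with MGA, 84.8 ± 2.28 TPM with empty vector, 106 ± 6.43 TPM with siMYC and 102 ± 4.74 TPM with siNC. The ratio of its cytosolic counterpart IARS to it was 1.48 with MGA, 1.07 with empty vector, 0.634 with siMYC and 1.21 with siNC. PARS2, for proline, was the lowest of the 37 genes by mean in all 4 groups, at 5.02, 1.99, 3.51 and 3.53 TPM in MGA, empty vector, siMYC and siNC libraries. Among the 16 pairs of a mitochondrial gene with its cytosolic counterpart, the ratio differed widely. EPRS was the counterpart of both EARS2 and PARS2, and FARS2 was paired with FARSA and not with FARSB. WARS exceeded WARS2 by 37.2 times with MGA, 66.1 times with empty vector, 21.4 times with siMYC and 19.7 times with siNC, whereas HARS exceeded HARS2 by 1.96, 1.94, 1.69 and 2.48 times in the same groups. CARS and CARS2, for cysteine, had the only ratio besides IARS and IARS2 that fell below 1 in a group, at 1.26 with siMYC against 0.597 with siNC, and CARS2 rested there on siNC library values of 85.7 and 43.0 TPM.

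**Figure D1:**
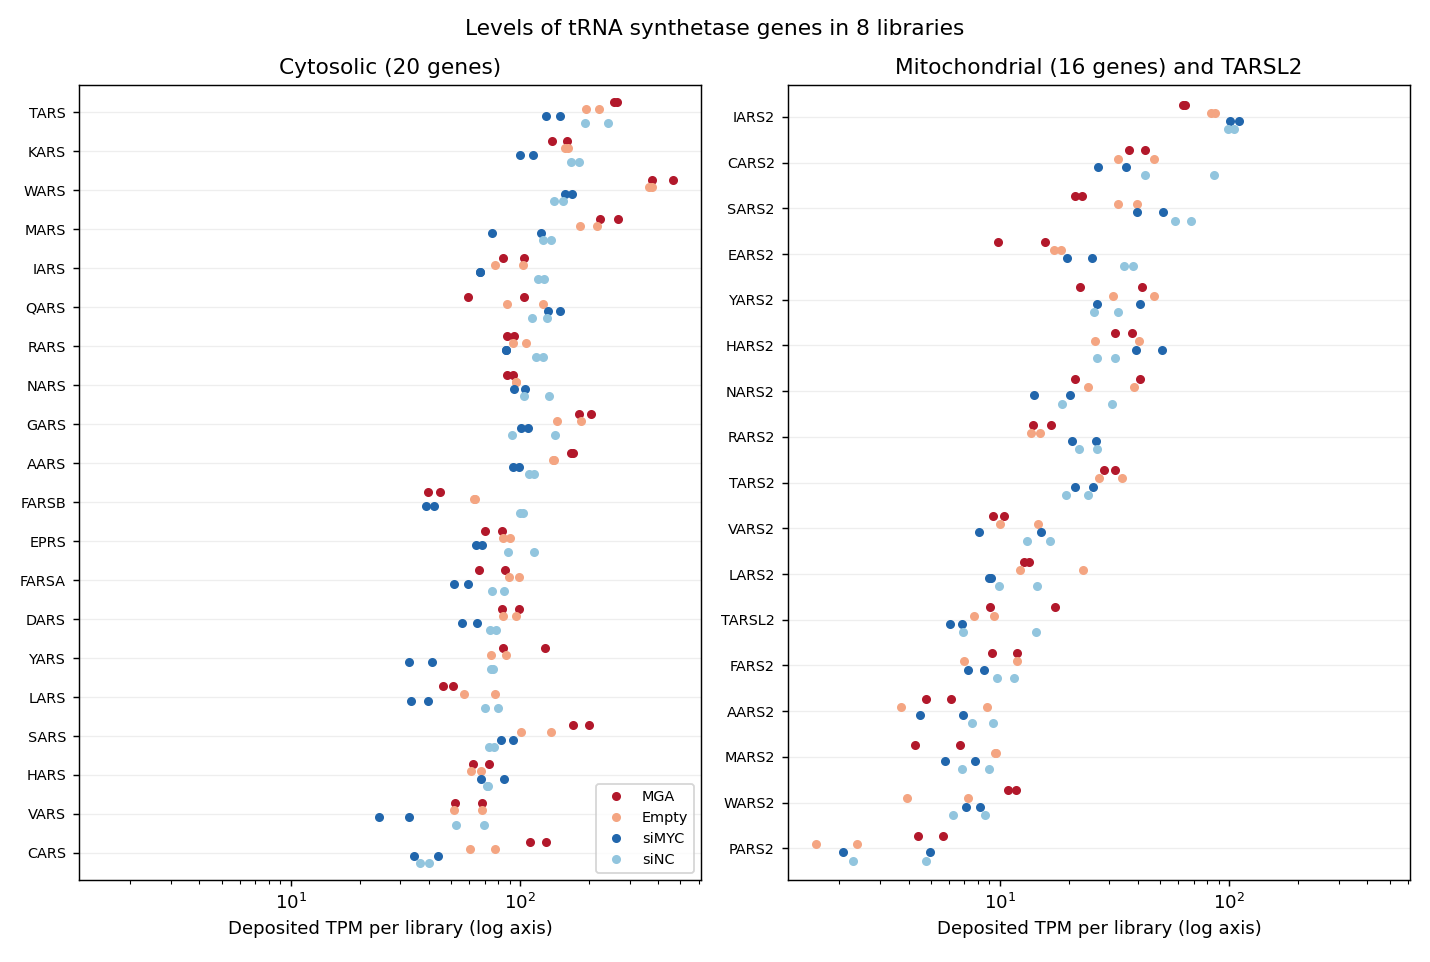
Deposited TPM of each synthetase gene in each of the 8 libraries, on a log axis, with cytosolic genes at the left and mitochondrial genes and TARSL2 at the right. Points are single libraries, and the legend gives the 4 groups. WARS reached 420 TPM on average with MGA, and PARS2 was lowest by mean in each group, though not in every library.

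Knockdown of MYC was followed by lower RNA for most cytosolic synthetases. Of the 20 cytosolic genes, 15 fell, 0 rose and 5 were not called, with a median log2 fold change of -0.66. Of 15 mitochondrial genes tested, 3 fell and 0 rose, with a median of -0.43. The median over all 11218 genes tested was 0.01, and 39% of them were called with siMYC, 20% lower and 19% higher. Genes were called at an adjusted p under 0.05 in edgeR's quasi-likelihood test. In bulk RNA, less RNA in every cell and loss of the RNA in some cells cannot be told apart, and every value is a share of its library's RNA. Reads on the 37 genes made up 0.283% and 0.271% of counts in siMYC libraries and 0.402% and 0.399% in siNC libraries. In CPM, both siMYC libraries lay below both siNC libraries in 16 of the 20 cytosolic genes and 9 of the 15 mitochondrial genes. Of all genes tested, 33.6% did so. Both lay above in CPM in 0 cytosolic genes and 1 mitochondrial gene, against 34% of all genes. Of the genes below in CPM, GARS, HARS, NARS, IARS2, NARS2 and VARS2 overlapped in TPM. In TPM both siMYC libraries lay above in QARS, SARS, WARS and HARS2. The shares of all genes were not computed in TPM.

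The enzymes of the multi-tRNA synthetase complex were lower with siMYC in 7 of 8 genes, with a median log2 fold change of -0.75. IARS (ENSG00000196305.13), the isoleucyl-tRNA synthetase, stood at 173 and 172 CPM in siMYC libraries and at 358 and 359 CPM in siNC libraries. LARS (ENSG00000133706.13), the leucyl-tRNA synthetase that also senses leucine for mTORC1, stood at 88.2 and 84.1 CPM in siMYC libraries and at 204 and 205 CPM in siNC libraries. In both genes the replicates lay close together and the groups were far apart. The log2 fold change was -1.06 for IARS (SE 0.10, adjusted p = 1.25e-09) and -1.24 for LARS (SE 0.11, adjusted p = 1.64e-09).

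KARS (ENSG00000065427.10), which serves lysine in both compartments, stood at 129 and 106 CPM in siMYC libraries and at 213 and 231 CPM in siNC libraries. EPRS (ENSG00000136628.13), a fused enzyme for glutamate and proline, stood at 178 and 135 CPM in siMYC libraries and at 297 and 271 CPM in siNC libraries. The groups did not overlap for either gene, and both siMYC A values were above their siMYC B values. The log2 fold changes were -0.91 for KARS (SE 0.12, adjusted p = 4.93e-07) and -0.84 for EPRS (SE 0.11, adjusted p = 1.22e-06). MARS, RARS and DARS, for methionine, arginine and aspartate, fell by 0.65 (adjusted p = 7.7e-05), 0.60 (adjusted p = 0.000222) and 0.67 (adjusted p = 0.000318) on the log2 scale. QARS, for glutamine, was the exception in the complex, at 116 and 122 CPM with siMYC and 109 and 123 CPM with siNC (log2 fold change 0.03, 95% interval -0.24 to 0.30).

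Outside the complex, 8 of 12 cytosolic genes fell with siMYC, with a median log2 fold change of -0.42. FARSB (ENSG00000116120.8), the beta subunit of the phenylalanyl-tRNA synthetase, stood at 48.7 and 55.8 CPM in siMYC libraries and at 139 and 145 CPM in siNC libraries. FARSA, its alpha subunit, stood at 47.8 and 54.0 CPM in siMYC libraries and at 85.0 and 98.0 CPM in siNC libraries. Both subunits were lower in both siMYC libraries, with log2 fold changes of -1.45 for FARSB (SE 0.13, adjusted p = 1.73e-09) and -0.86 for FARSA (SE 0.16, adjusted p = 7.4e-05). FARSB had the lowest fold change of the 36 genes tested.

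YARS (ENSG00000134684.6), for tyrosine, stood at 66.2 and 63.2 CPM in siMYC libraries and at 130 and 147.5 CPM in siNC libraries. TARS (ENSG00000113407.9), for threonine, stood at 148 and 137 CPM in siMYC libraries and at 239 and 232 CPM in siNC libraries. VARS (ENSG00000204394.8), for valine, stood at 59.7 and 63.8 CPM in siMYC libraries and at 104 and 111 CPM in siNC libraries. None of these 3 genes overlapped between the groups. Their log2 fold changes were -1.10 for YARS (SE 0.13, adjusted p = 1.73e-07), -0.72 for TARS (SE 0.11, adjusted p = 4.34e-06) and -0.81 for VARS (SE 0.14, adjusted p = 5.41e-05). AARS, NARS and GARS, for alanine, asparagine and glycine, had smaller falls of 0.45 (adjusted p = 0.00104), 0.39 (adjusted p = 0.00566) and 0.34 (adjusted p = 0.0226) on the log2 scale. The GARS call ended without siMYC replicate B (log2 fold change -0.25, adjusted p = 0.147) and without siNC replicate B (-0.27, adjusted p = 0.168), and with the MGA gene removed from the counts (adjusted p = 0.0671). In DESeq2 the calls of NARS (adjusted p = 0.135) and GARS (adjusted p = 0.216) ended.

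HARS, WARS, SARS and CARS, for histidine, tryptophan, serine and cysteine, were not called with siMYC. Their log2 fold changes were -0.18 for HARS (95% interval -0.45 to 0.10), -0.07 for WARS (-0.30 to 0.17), 0.02 for SARS (-0.28 to 0.32) and -0.13 for CARS (-0.47 to 0.20). These intervals leave out the size of the falls seen for IARS, LARS, FARSB and YARS, all below -1 on that scale.

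Among mitochondrial genes, CARS2, EARS2 and NARS2, for cysteine, glutamate and asparagine, fell with siMYC. CARS2 (ENSG00000134905.12) stood at 25.3 and 29.5 CPM in siMYC libraries and at 55.0 and 39.7 CPM in siNC libraries. EARS2 (ENSG00000103356.11) stood at 28.5 and 40.5 CPM against 52.9 and 56.6 CPM, and NARS2 (ENSG00000137513.5) at 20.2 and 20.9 CPM against 35.0 and 30.9 CPM. The groups did not overlap in any of the 3. The log2 fold changes were -0.78 (SE 0.21, adjusted p = 0.00379), -0.70 (SE 0.18, adjusted p = 0.00356) and -0.67 (SE 0.21, adjusted p = 0.0129). The CARS2 call ended without siNC replicate A (-0.55, adjusted p = 0.0863), the EARS2 call without siMYC replicate A (-0.44, adjusted p = 0.122), and the NARS2 call without siMYC replicate A (-0.65, adjusted p = 0.0742) or siNC replicate A (-0.59, adjusted p = 0.0806). In DESeq2 all 3 calls ended (adjusted p = 0.13, 0.195 and 0.25).

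The other 12 mitochondrial genes tested were not called with siMYC, and 11 of them had negative fold changes. HARS2, the mitochondrial histidyl-tRNA synthetase, went the other way, at 65.7 and 54.6 CPM in siMYC libraries and 37.2 and 50.7 CPM in siNC libraries (log2 fold change 0.45, SE 0.19, adjusted p = 0.0636). HARS2 was called higher under several other settings, among them without siMYC replicate B (0.55, adjusted p = 0.0369) and without siNC replicate B (0.69, adjusted p = 0.0335). HARS and HARS2 had siMYC fold changes of opposite sign in counts, though neither was called. Both were positive with siMYC on the log2(TPM + 1) scale (0.07 and 0.61), and both were negative in counts with MGA (-0.10 and -0.29). The genes stand head to head, and their RefSeq windows share 184 bases on opposite strands, shown here.
HARS2 (chr5:140691321-140691504, plus strand): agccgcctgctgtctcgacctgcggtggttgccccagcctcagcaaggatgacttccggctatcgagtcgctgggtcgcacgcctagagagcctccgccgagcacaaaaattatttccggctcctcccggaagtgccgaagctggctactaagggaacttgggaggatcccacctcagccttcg
The stretch held neither CACGTG nor TGATGNAA. In the GENCODE annotation, exons of HARS and HARS2 share 437 bases, and since the sources used here do not say whether counting used strand, their reads there cannot be told apart. IARS2, the mitochondrial gene with the most reads, had a log2 fold change of -0.12 with siMYC (95% interval -0.33 to 0.08). TARSL2 had -0.38 (SE 0.31), and PARS2 was too low to test, with 6 and 11 counts in siMYC libraries and 10 and 6 in siNC libraries.

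**Figure D2:**
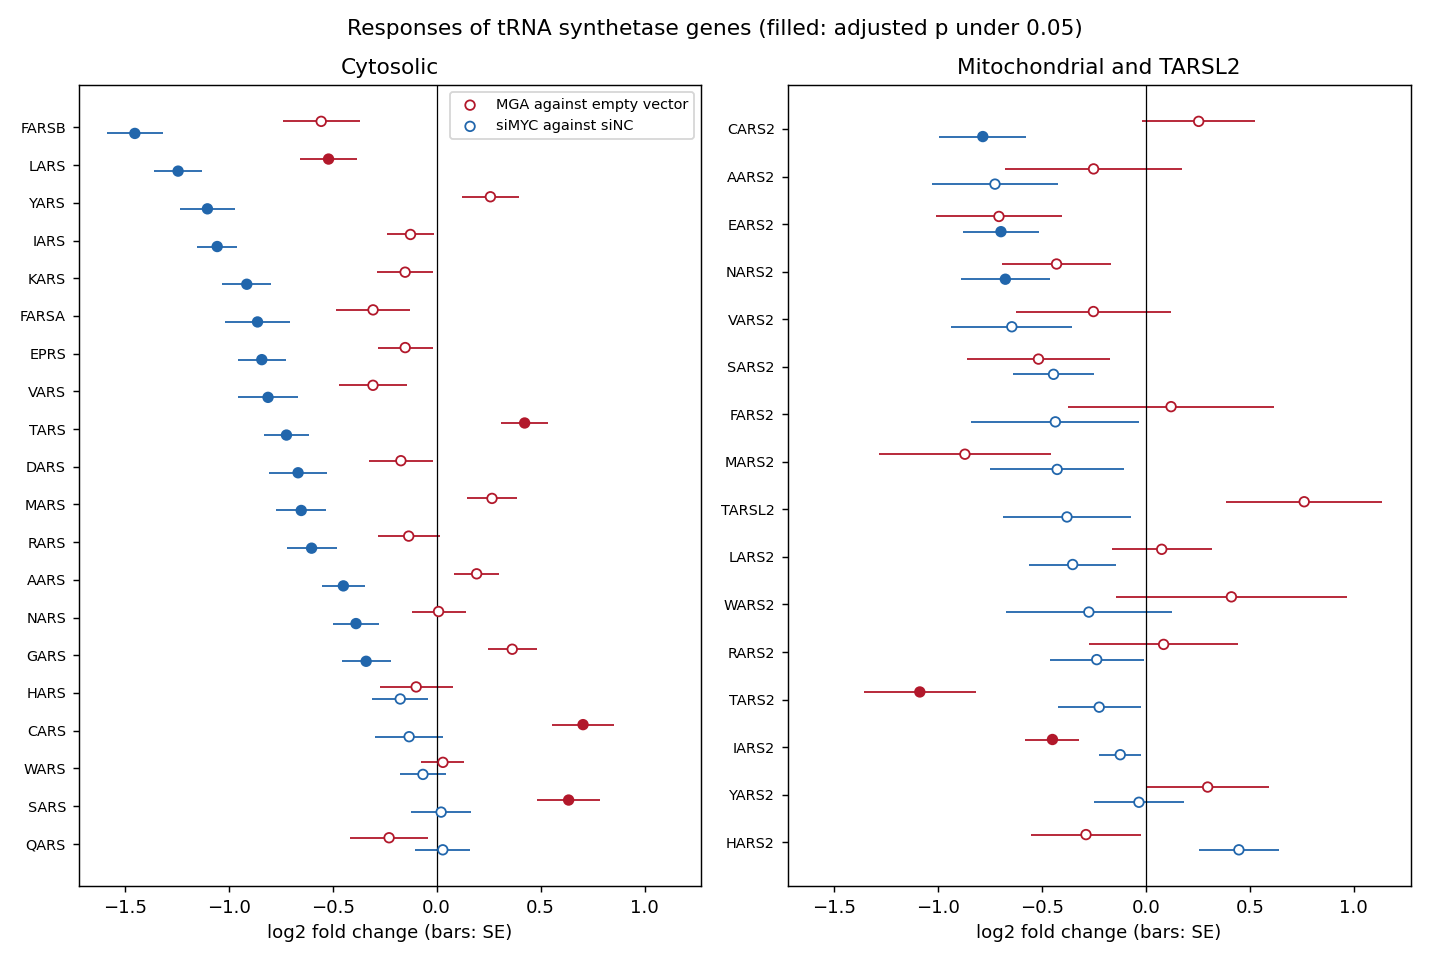
Log2 fold change of each tested gene with MGA against empty vector and with siMYC against siNC, with bars of 1 SE. Filled points have an adjusted p under 0.05. Most cytosolic genes lie left of 0 with siMYC, down to -1.45 for FARSB, and on both sides of 0 with MGA.

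With MGA, the synthetases moved less and in both directions. Of the 20 cytosolic genes, 3 rose and 1 fell, with a median log2 fold change of -0.11, and of 15 mitochondrial genes tested, 0 rose and 2 fell, with a median of -0.25. Of all genes tested, 8.96% were called with MGA, 4.96% higher and 4% lower, around a median of 0.01. The cytosolic median had the other sign, 0.04, in limma on log2(TPM + 1). Reads on the 37 genes made up 0.394% and 0.382% of counts in MGA libraries and 0.405% and 0.426% in empty vector libraries. In CPM, both MGA libraries lay above both empty vector libraries in 7 cytosolic genes and 0 mitochondrial genes, against 27.6% of all genes tested. They lay below in 6 of the 20 cytosolic and 6 of the 15 mitochondrial genes, against 25% of all genes. In TPM, GARS, YARS, IARS, KARS, NARS2 and TARS2 overlapped instead, WARS and WARS2 lay above, and NARS lay below. The shares of all genes were not computed in TPM.

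The 3 genes that rose with MGA all encode enzymes outside the multi-tRNA synthetase complex, as do 12 of the 20 cytosolic genes. CARS (ENSG00000110619.12), for cysteine, stood at 187 and 173 CPM in MGA libraries and at 101 and 121 CPM in empty vector libraries. SARS (ENSG00000031698.8), for serine, stood at 172 and 197 CPM in MGA libraries and at 102 and 136 CPM in empty vector libraries. TARS, for threonine, stood at 297 and 345 CPM in MGA libraries and at 234 and 242 CPM in empty vector libraries. In all 3 genes both MGA libraries were above both empty vector libraries. The log2 fold changes were 0.70 for CARS (SE 0.15, adjusted p = 0.00272), 0.63 for SARS (SE 0.15, adjusted p = 0.00709) and 0.42 for TARS (SE 0.11, adjusted p = 0.0173).

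Each of these calls ended when some single library was left out, where the lone library of its group is assumed to vary like the others. CARS lost its call without MGA replicate A (adjusted p = 0.0617) and without empty vector replicate A (adjusted p = 0.0923). SARS lost its call without MGA replicate B (adjusted p = 0.0982) and without empty vector replicate A (adjusted p = 0.195). TARS lost its call without MGA replicate B (adjusted p = 0.235) and without empty vector replicate A (adjusted p = 0.146) or B (adjusted p = 0.103). In DESeq2 the CARS call held, and SARS (adjusted p = 0.0515) and TARS (adjusted p = 0.0828) missed the threshold. The TARS call also ended with upper-quartile size factors (adjusted p = 0.0549) and with library sizes alone (adjusted p = 0.101).

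LARS was the only gene of the complex called with MGA. It stood at 110.4 and 113 CPM in MGA libraries and at 161 and 160 CPM in empty vector libraries, with no overlap and close replicates (log2 fold change -0.52, SE 0.14, adjusted p = 0.0161). Of the other 7 genes of the complex, 6 had negative fold changes with MGA and MARS a positive one, and the median of the complex was -0.15 against 0.11 for the 12 cytosolic genes outside it. The LARS call ended without MGA replicate A (adjusted p = 0.142) or B (adjusted p = 0.0833), and without empty vector replicate A (adjusted p = 0.101) or B (adjusted p = 0.0931), while its log2 fold change stayed at -0.50, -0.54, -0.52 and -0.53. It also ended in DESeq2 (adjusted p = 0.112).

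In the mitochondrial class, IARS2 and TARS2 fell with MGA. IARS2 (ENSG00000067704.8) stood at 143 and 147 CPM in MGA libraries and at 191 and 205 CPM in empty vector libraries. TARS2 (ENSG00000143374.10), the mitochondrial threonyl-tRNA synthetase, stood at 21.9 and 18.7 CPM in MGA libraries and at 46.3 and 40.8 CPM in empty vector libraries. The groups did not overlap in either gene. The log2 fold changes were -0.45 for IARS2 (SE 0.13, adjusted p = 0.0266) and -1.09 for TARS2 (SE 0.27, adjusted p = 0.0101). IARS2 lost its call without MGA replicate A (adjusted p = 0.192) or B (adjusted p = 0.114) and without empty vector replicate A (adjusted p = 0.0864) or B (adjusted p = 0.192). TARS2 lost its call without MGA replicate A (adjusted p = 0.0599) or B (adjusted p = 0.083) and without empty vector replicate A (adjusted p = 0.103). In DESeq2 IARS2 was not called (adjusted p = 0.128), and TARS2 was given no adjusted p.

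The fall of TARS2 was in counts and not in TPM. Its TPM averaged 30.1 ± 2.19 with MGA and 30.5 ± 4.95 with empty vector (SD, n = 2 each), a log2 difference of -0.01 on the log2(TPM + 1) scale. The effective length that RSEM gave the gene averaged 977 bases with MGA and 2042 bases with empty vector, a ratio of 0.478. The same ratio was 1.69 for YARS2 and 0.733 for WARS2, and for VARS it was 1.39 between siMYC and siNC. Which transcripts of these genes the reads came from was not tested.

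Of the 30 tested genes not called with MGA, 2 lay near the threshold and were called under several other settings. GARS stood at 311 and 283 CPM in MGA libraries and at 242 and 221 CPM in empty vector libraries (log2 fold change 0.36, SE 0.12, adjusted p = 0.0526). It was called higher with RLE size factors (adjusted p = 0.0472), a minimum count of 30 (0.0382), separate fits of each experiment (0.0172), the replicate block (0.0333), and without any 1 of the 4 siRNA libraries (0.0396 to 0.0491). FARSB stood at 51.1 and 59.6 CPM in MGA libraries and at 79.9 and 81.5 CPM in empty vector libraries (log2 fold change -0.56, SE 0.19, adjusted p = 0.0599). It was called lower with upper-quartile size factors (adjusted p = 0.0306), library sizes alone (0.0163), a minimum count of 30 (0.0454) and separate fits (0.028). WARS, the gene with the highest level, had a log2 fold change of 0.03 (95% interval -0.18 to 0.24). TARSL2 had 0.76, with a wide interval of -0.01 to 1.53. PARS2 was not tested, with 7 and 7 counts in MGA libraries and 2 and 3 in empty vector libraries.

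**Figure D3:**
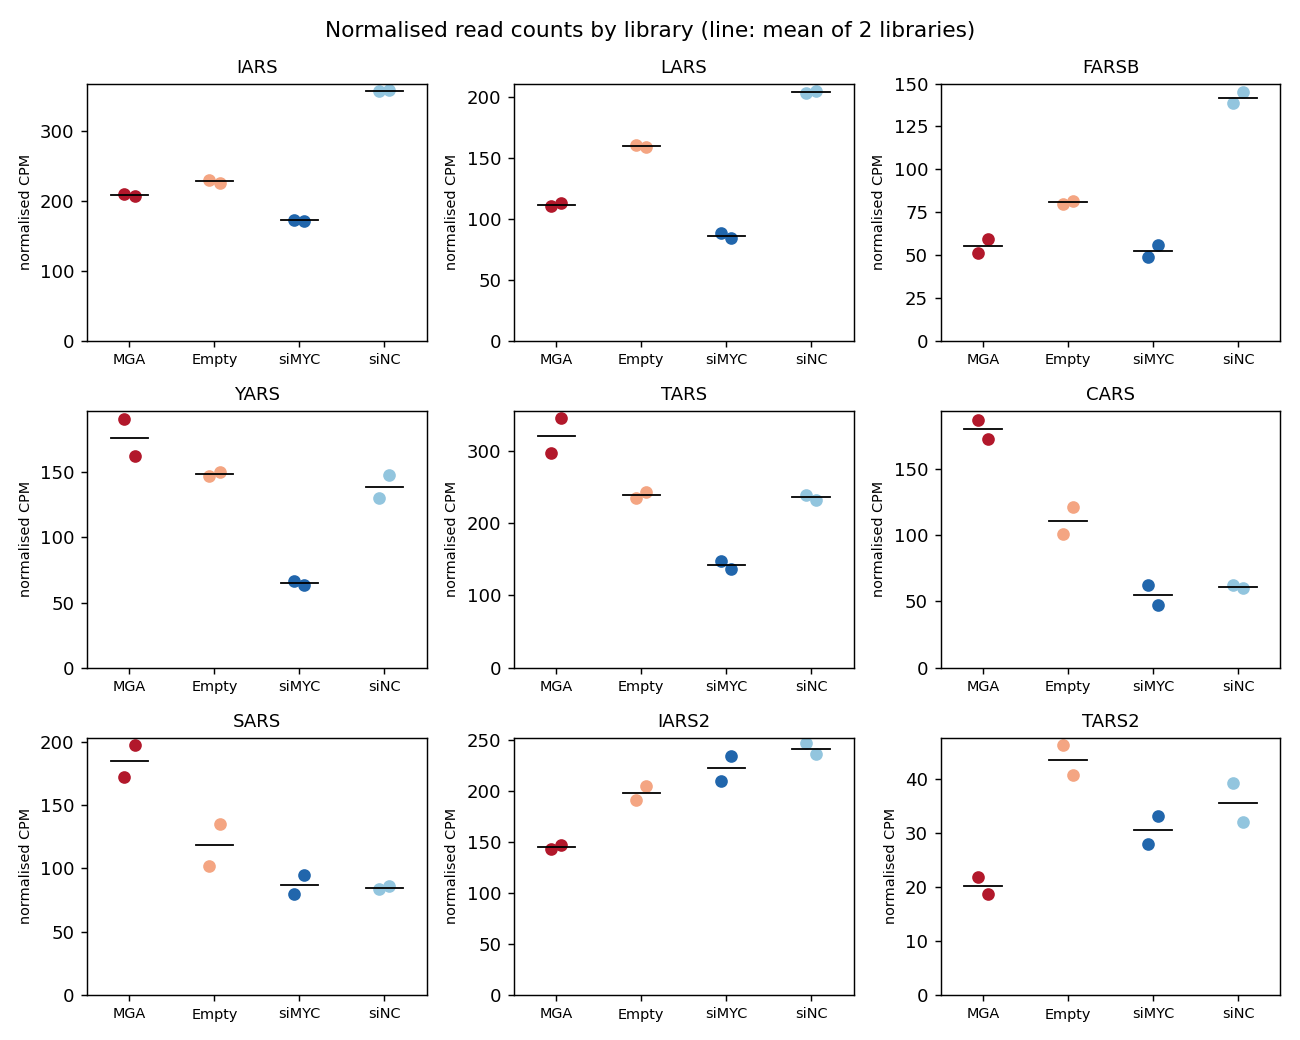
Normalised counts (CPM) of 9 synthetase genes in each library, with a line at the mean of each group of 2. IARS, LARS, FARSB, YARS and TARS lie lower with siMYC than with siNC, CARS, SARS and TARS lie higher with MGA than with empty vector, and LARS, IARS2 and TARS2 lie lower with MGA.

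Whether the responses to MGA and to siMYC differed was tested directly, as the MGA log2 fold change minus the siMYC log2 fold change. The difference was called in 13 of the 36 genes, 12 cytosolic and CARS2, each time with the MGA response above the siMYC response. Of all genes tested, 10.3% were called in that direction and 8.22% in the other. The cytosolic median of the difference was 0.67 and the mitochondrial median 0.32, against 0.03 over all genes tested. The comparisons share no libraries, but they differ in experiment as well as in the manipulated gene, and those cannot be told apart.

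Set side by side, the calls put 16 of the 36 genes in the class called lower with siMYC and not with MGA, which held 17.6% of all genes tested. CARS and SARS were called higher with MGA alone (2.94% of all genes), IARS2 and TARS2 lower with MGA alone (1.25%), and 14 genes were called in neither comparison (56.9%). Of the 36 genes 0 were called higher in both (1.58% of all genes), and 0 lower with MGA and higher with siMYC (0.847%).

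TARS was the only gene called in opposite directions, higher with MGA and lower with siMYC, which held for 0.437% of all genes tested, though its rise with MGA was not called with upper-quartile size factors or library sizes alone. Its responses differed by 1.15 (SE 0.16, adjusted p = 6.27e-06). YARS had the largest called difference, 1.36 (SE 0.19, adjusted p = 9.09e-06), with a log2 fold change of 0.26 with MGA and -1.10 with siMYC. IARS and MARS differed by 0.93 (adjusted p = 5.62e-05) and 0.92 (adjusted p = 0.000285). LARS was the only gene called lower in both, a class of 1.91% of all genes, and it fell less with MGA than with siMYC, by 0.72 (SE 0.18, adjusted p = 0.00529). For CARS and SARS, which rose with MGA and were not called with siMYC, the responses differed by 0.84 (adjusted p = 0.00835) and 0.61 (adjusted p = 0.0415), and the SARS difference lost its call when 1 library was left out, whichever of 6 it was (both MGA, empty vector A, siMYC A and both siNC), with adjusted p between 0.0503 and 0.247. The SARS difference was also lost with RLE size factors (adjusted p = 0.0576), upper-quartile size factors (0.107), library sizes alone (0.148) and the MGA gene removed (0.0825).

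FARSB, KARS, GARS, EPRS and AARS, which fell with siMYC and were not called with MGA, had called differences of 0.90, 0.76, 0.70, 0.69 and 0.64. The FARSB difference lost its call without MGA replicate B (adjusted p = 0.0583). The KARS and EPRS differences lost theirs without MGA replicate A (adjusted p = 0.0539 and 0.065), and the CARS difference lost its call without empty vector replicate A (adjusted p = 0.0623). CARS2 differed by 1.04 (SE 0.34, adjusted p = 0.034), and lost its call without replicate A of MGA (adjusted p = 0.162), empty vector (adjusted p = 0.207), siMYC (adjusted p = 0.0939) or siNC (adjusted p = 0.125), and with upper-quartile size factors (adjusted p = 0.0625), library sizes alone (0.0795) and the MGA gene removed (0.0531). The differences for TARS2 and IARS2, -0.86 (adjusted p = 0.0756) and -0.33 (adjusted p = 0.178), were not called. Other scalings did call them, for TARS2 with upper-quartile size factors (-0.98, adjusted p = 0.0419) and library sizes alone (-1.03, adjusted p = 0.0314), and for IARS2 with library sizes alone (-0.50, adjusted p = 0.0328). Without MGA replicate B the differences for FARSA (0.78, adjusted p = 0.0405) and HARS2 (-1.10, adjusted p = 0.0437) were called.

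Across the 20 cytosolic genes the responses had a Pearson's r of 0.56 and a Spearman's rho of 0.52, and across the 15 mitochondrial genes an r of 0.06 and a rho of 0.03. Over all 11218 genes r was 0.11 and rho 0.16. These are descriptions across genes, which share libraries and are not independent, and the mitochondrial values carry larger errors.

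**Figure D4:**
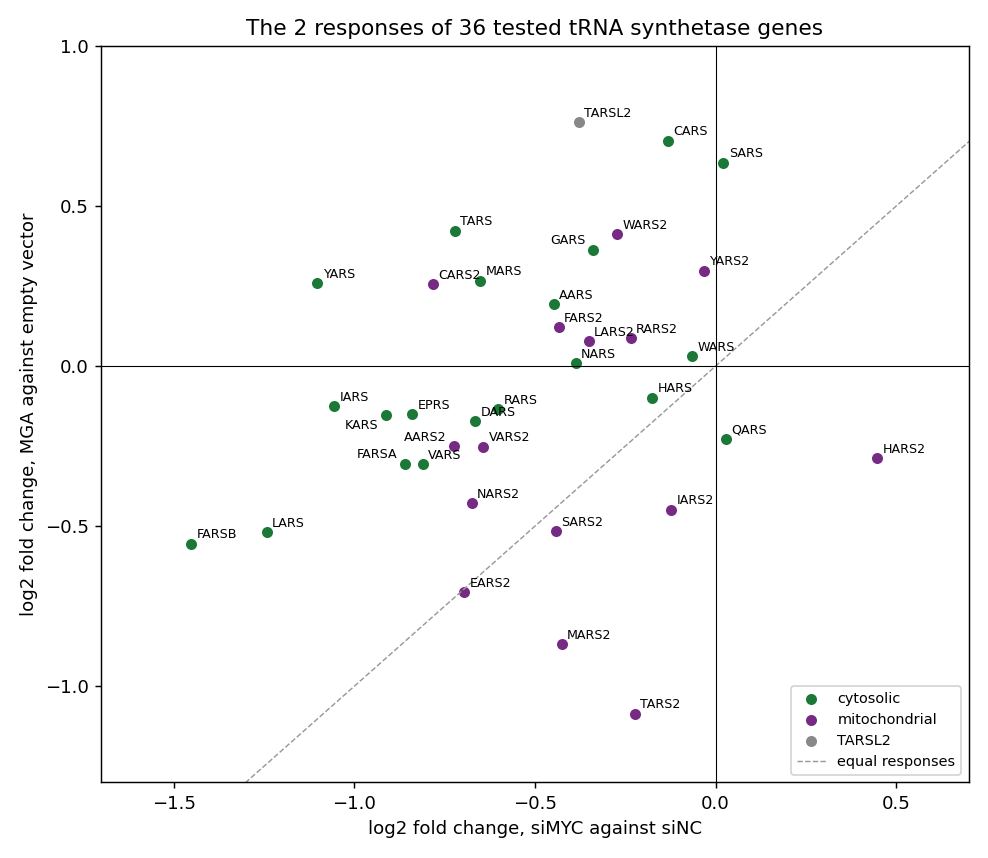
Log2 fold change with MGA against empty vector (vertical) and with siMYC against siNC (horizontal) for the 36 tested genes, coloured by class. The dashed line marks equal responses. Most cytosolic genes lie above the line, TARS at 0.42 and -0.72, while TARS2 lies below it at -1.09 and -0.22.

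The partners of the synthetases were examined as 3 lists. Of 15 tested genes for scaffold proteins of the complex and for partners in tRNA charging, 1 fell with MGA, and 3 fell and 1 rose with siMYC, where 4% of all genes tested were called lower with MGA, and 20% lower and 19% higher with siMYC. The share that fell with siMYC was thus that of all genes. AIMP2, a scaffold protein of the complex, stood at 22.8 and 22.2 CPM in MGA libraries against 41.7 and 66.0 CPM in empty vector libraries (log2 fold change -1.25, SE 0.27, adjusted p = 0.00363). It stood at 28.5 and 32.5 CPM in siMYC libraries against 53.6 and 67.6 CPM in siNC libraries (log2 fold change -1.01, SE 0.19, adjusted p = 0.000127). AIMP2 was therefore lower in all 4 manipulated libraries than in their controls. EEF1E1, another scaffold protein, fell by 1.66 on the log2 scale with siMYC (adjusted p = 1.29e-05), and PTRH2, a peptidyl-tRNA hydrolase, by 0.79 (adjusted p = 0.00401). GATC, a subunit of the mitochondrial enzyme that makes glutaminyl-tRNA, rose by 0.67 with siMYC (adjusted p = 0.0134).

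Of 36 tested genes for tRNA maturation, modification and export, 22 fell and 0 rose with siMYC, with a median log2 fold change of -0.81, and 1 fell and 0 rose with MGA. Of all genes tested, 20% were called lower and 19% higher with siMYC, and 4% lower and 4.96% higher with MGA. The difference between the responses was called in 13 of these 36 genes with MGA above siMYC, and in 0 the other way. Its median was 0.84, and 10.3% of all genes were called with MGA above and 8.22% the other way. NSUN2, a cytosine methyltransferase of tRNA, stood at 71.2 and 69.3 CPM in siMYC libraries and at 216 and 180 CPM in siNC libraries (log2 fold change -1.48, SE 0.13, adjusted p = 4.05e-10). XPOT, the export receptor of tRNA, stood at 115 and 107 CPM in siMYC libraries and at 248.6 and 226 CPM in siNC libraries (log2 fold change -1.08, adjusted p = 1.98e-08). Neither gene overlapped between the groups. POP1, a subunit of ribonuclease P, and PUS1, a pseudouridine synthase, fell by 1.82 (adjusted p = 4.21e-07) and 1.36 (adjusted p = 1.51e-06) on the log2 scale with siMYC. GTPBP3, which modifies mitochondrial tRNA, fell by 1.06 with MGA (adjusted p = 0.0371) and by 1.34 with siMYC (adjusted p = 0.000399).

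Of 27 genes of the amino acid response, 5 rose and 1 fell with MGA, and 7 rose and 13 fell with siMYC. Of all genes tested, 4.96% were called higher and 4% lower with MGA, and 19% higher and 20% lower with siMYC. DDIT3, a stress-induced transcription factor, stood at 139 and 140.2 CPM in MGA libraries and at 59.0 and 64.8 CPM in empty vector libraries (log2 fold change 1.17, SE 0.17, adjusted p = 3.5e-05). DDIT3 also rose with siMYC, to 23.9 and 17.8 CPM against 13.6 and 10.5 CPM in siNC libraries (log2 fold change 0.83, SE 0.27, adjusted p = 0.0157). TRIB3 and SLC38A2 likewise rose in both comparisons, by 0.69 and 0.43 with MGA (adjusted p = 0.00471 and 0.0191) and by 0.49 and 0.47 with siMYC (adjusted p = 0.0135 and 0.00172). ATF3, a transcription factor of the same response, rose by 0.71 (adjusted p = 0.000124) and FAM129A, also called Niban, by 2.07 (adjusted p = 0.000252) with MGA. SLC7A5, a transporter of large neutral amino acids, fell with MGA (log2 fold change -0.84, adjusted p = 6.68e-06) and with siMYC (-0.79, adjusted p = 4.69e-07). With siMYC the serine enzyme PSAT1, the proline enzyme PYCR1 and the transporter SLC7A1 fell by 1.32, 1.35 and 1.06 on the log2 scale (adjusted p = 2.93e-09, 1.3e-07 and 6.14e-07). The transcription factor ATF4 itself had a log2 fold change of -0.07 with MGA (adjusted p = 0.765) and -0.46 with siMYC (adjusted p = 0.000657). DDIT3 and MARS lie on opposite strands and share 355 exon bases in GENCODE, so that without knowledge of strand in the counting, their reads there cannot be told apart. In that annotation 20 of the 37 synthetase genes share exon bases with another gene, 17 of them on the opposite strand.

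The classes differed in depth as well. The median count of the 20 cytosolic genes was between 129 and 262 in each library, and that of the 16 mitochondrial genes between 14.5 and 49. The median SE of the log2 fold change was accordingly 0.14 for cytosolic and 0.30 for mitochondrial genes with MGA, and 0.12 and 0.21 with siMYC. A fold change of the size of the AARS response to siMYC, -0.45, was called for that gene and was not called for SARS2, at -0.44 (SE 0.20, adjusted p = 0.0731). The numbers of calls were thus reached with unequal errors, and do not compare the sizes of the responses. With a minimum count of 30, the median log2 fold changes with siMYC were -0.64 for cytosolic and -0.27 for mitochondrial genes. With MGA they were -0.11 and -0.36 under that filter. Whether the mitochondrial class responded less was not tested.

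**Figure D5:**
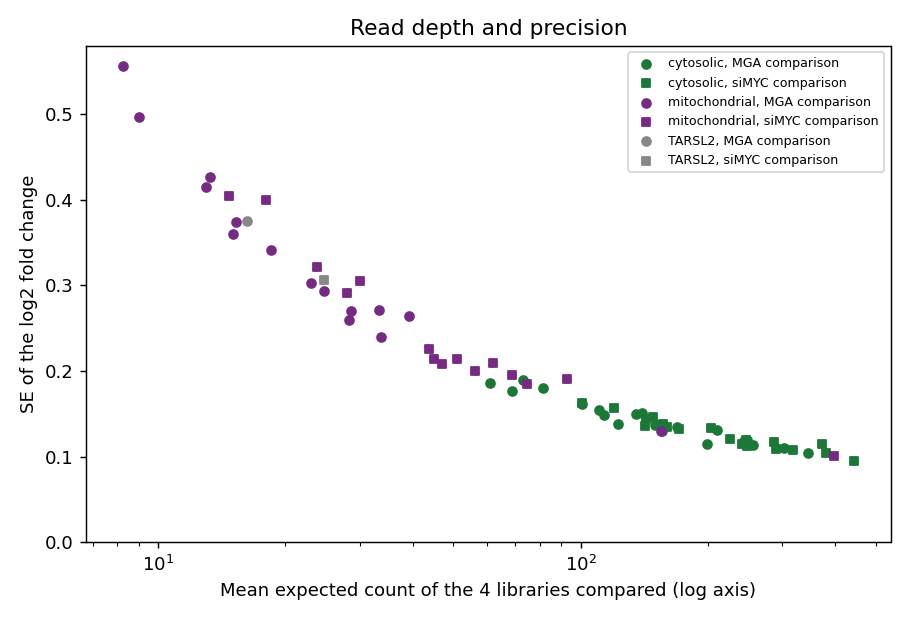
SE of the log2 fold change against the mean expected count of the 4 libraries compared (log axis), for each tested gene in each comparison. The error falls as the count rises, and the mitochondrial genes other than IARS2 lie at the left with larger errors.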

How the data were processed

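Poly(A)-selected RNA of A549 cells was sequenced, per the labels' protocols. Per the submitters' processing notes the tools were STAR and RSEM on hg19. The version of each tool and the gene annotation were not given in the sources used. The authors deposited 1 gene table per library with expected counts, TPM and FPKM, per the file headers. TPM (scaled to length and library) was used for levels as deposited, and FPKM was not used. Deposited expected counts, whole in 284 of 296 member values within 0.005, were rounded. Genes were filtered with filterByExpr (minimum count 10, total 15; 11218 of 57820 kept, 36 of 37 members), scaled by TMM and fitted together over 8 libraries in edgeR 4.0.16 (R 4.3.3; quasi-likelihood F test, two-sided, Benjamini-Hochberg over all genes tested, residual df 4, common coefficient of variation 0.0623). Fitted apart, the common coefficient of variation was 0.0343 in the MGA and empty vector libraries and 0.0725 in the siRNA libraries. SE is the absolute log2 fold change divided by the square root of F. Intervals are 95% t intervals on the total degrees of freedom of the test, which include those borrowed across genes. CPM is TMM-scaled. DESeq2 1.42.0 and limma 3.58.1 were alternatives, beside other size factors, filters, separate fits, a replicate block and each library left out. Replicates differed by more than sampling noise (chi-square per degree of freedom 1.13 to 1.85) and were kept as separate. Exon overlaps came from GENCODE on GRCh38, and start-site windows from RefSeq GRCh38.p14. The test was also run on simulated data, with no outcome given here. The members, lists and tests were chosen with earlier results of these data known. Members were named with values where called, per library for the 8 smallest p of a comparison and class, and 4 genes per partner list and comparison.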

Additional observations from a re-analysis of the deposited data

Results flagged for a closer look

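For 13 synthetase genes the response to MGA differed from the response to siMYC in a direct test of the difference, the MGA log2 fold change minus the siMYC log2 fold change, in edgeR. Among genes of the multi-tRNA synthetase complex the difference was 0.9288 for IARS, 0.9172 for MARS, 0.7613 for KARS, 0.7232 for LARS and 0.6896 for EPRS. Among cytosolic genes outside the complex it was 1.36 for YARS, 1.145 for TARS, 0.8963 for FARSB, 0.836 for CARS, 0.7025 for GARS, 0.6408 for AARS and 0.613 for SARS. Among mitochondrial genes it was 1.038 for CARS2. All 13 values were above 0. The pair of experiments differ in more than the manipulated gene, and the part of this in the differences was not tested.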

How the results depend on the processing

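No synthetase result changed sign under an alternative among those that were called. Of the 18 falls with siMYC, 14 were called in all count fits in edgeR, and FARSB, IARS, KARS and LARS under every setting. None of the 6 calls with MGA was kept in all count fits, and 7 of the 13 differences between the responses were. With DESeq2 there were 1 cytosolic rise and 0 cytosolic falls with MGA, 13 cytosolic and 0 mitochondrial falls with siMYC, and 7 differences (CARS, EPRS, FARSB, LARS, SARS and CARS2 lost). Its 0 mitochondrial falls with MGA rest on IARS2 and HARS2 alone, since it gave the other 13 mitochondrial genes, TARS2 among them, no adjusted p. In limma on the deposited TPM (pseudocount 1, pseudocount 0.1, and pseudocount 1 with no filter), the calls with MGA were 0 in each class and direction, cytosolic falls with siMYC were 7, 7 and 4, mitochondrial falls with siMYC 0, and differences 1, 1 and 0. The cytosolic falls lost there with the filter were AARS, DARS, EPRS, FARSA, GARS, MARS, NARS and RARS. FARSB made the cytosolic falls with MGA 2 with upper-quartile factors, library sizes alone, a minimum count of 30 and separate fits of each experiment. HARS2 made the mitochondrial rises with siMYC 1 with RLE factors, upper-quartile factors, library sizes alone, the MGA gene removed, a minimum count of 30 and the replicate block. Leaving out 1 library gave 0 to 4 cytosolic rises, 0 to 1 cytosolic falls and 0 to 2 mitochondrial falls with MGA, 14 to 15 cytosolic falls, 2 to 4 mitochondrial falls and 0 to 1 mitochondrial rises with siMYC, and 9 to 13 differences. GARS made the cytosolic rises with MGA 4 with RLE factors, a minimum count of 30, separate fits and the replicate block, and the loss of TARS made them 2 with upper-quartile factors and library sizes alone. With the replicate block MGA gave 1 cytosolic fall, and siMYC gave 15 cytosolic falls. The labels do not say that the letters pair libraries, and same-letter deviations correlated at -0.02 between MGA and empty vector libraries and at 0.13 between siMYC and siNC libraries. Of the values of members not called, 48 of 592 with MGA and 36 of 354 with siMYC had the other sign. The median of all genes moved to -0.12 with MGA under library sizes alone, and to 0.14 with siMYC in limma with pseudocount 1. Calls in the whole table with MGA were 556 higher and 449 lower, against 387 and 628 with upper-quartile factors, 300 and 821 with library sizes alone, and 32 and 50 in limma with pseudocount 1. For the difference they were 1154 and 922, against 804 and 1188, 714 and 1357, and 892 and 1101 with the MGA gene removed. Counting TARSL2 with the names ending in 2 left their calls at 0 higher and 2 lower with MGA and 0 higher and 3 lower with siMYC. The causes were not tested. At these depths, mitochondrial genes with under about 50 counts a library limit what could be called.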

Other observations

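The control groups of the experiments held different levels of some synthetase genes, as values across experiments with no comparison intended by the design. WARS stood at 364 and 385 CPM in empty vector libraries and at 142 and 150 CPM in siNC libraries. CARS stood at 101 and 121 CPM in empty vector libraries and at 62.2 and 60.1 CPM in siNC libraries. IARS stood the other way, at 230.4 and 227 CPM in empty vector libraries and at 358 and 359 CPM in siNC libraries, as did FARSB, at 79.9 and 81.5 CPM and at 139 and 145 CPM. The amino acid response gene ATF3 stood at 269 and 281 CPM in empty vector libraries and at 19.3 and 11.7 CPM in siNC libraries, and DDIT3 at 59.0 and 64.8 CPM and at 13.6 and 10.5 CPM. The vector, the siRNA and the experiment cannot be told apart here.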
